A study of Mus musculus with 6 samples.

Results

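The genes that encode collagen chains were compared between aortic RNA of Mymsl knockout mice (genotype Mymsl KO, 3 libraries) and of wild-type mice (genotype Mymsl WT, 3 libraries). Mymsl is a long noncoding RNA. The members were all rows of the deposited count table named Col, a number, a, and a number, which gave 44 collagen genes among 53735 rows. Of these, 34 passed the filter on low counts and were tested, among 14145 tested rows. Per the labels, RNA was taken from purified smooth muscle cells of the media, and sequencing used the TruSeq Stranded mRNA kit. The sources used here do not give strain, age, sex, how the gene was deleted or how many mice stand behind a library. P-values thus judge the difference between genotypes only against the spread among libraries, which may be technical. No row carried the name Mymsl, so the deletion was not checked under that name.

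Collagens are secreted proteins in which 3 chains wind into a triple helix with a repeating glycine. Fibrillar chains build the tension-bearing fibrils of the vessel wall, type IV chains build the sheet of the basement membrane that surrounds each smooth muscle cell, and network-forming chains build other lattices. FACITs (fibril-associated collagens with interrupted triple helices) sit on the surface of fibrils. The remaining chains include the beaded filaments of type VI, the anchoring fibrils of type VII, transmembrane collagens and the multiplexins XV and XVIII, which lie at basement membranes. In the aortic media smooth muscle cells make most of this matrix, and collagens I and III resist stretch beyond the range of elastin.

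By this grouping the table held 11 fibrillar, 6 basement membrane (type IV), 3 network, 9 FACIT and 15 other chains. The untested chains were Col2a1, Col11a1 and Col24a1 (fibrillar), Col10a1 (network), Col9a1 and Col9a2 (FACIT), and Col6a4, Col17a1, Col25a1 and Col26a1 (other). None of these 10 genes had more than 12 counts in any library. They include the main cartilage chains, Col2a1 and Col10a1.

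Upstream sequence is shown for 5 abundant collagen genes, from the fibrillar, basement membrane and other classes, to set genes with a fold change below 0 beside Col15a1, which lay above it. Each line gives the 250 bases before the RefSeq start on GRCm38.p6, 5′ to 3′ on the gene's strand, with no annotated exon within it. Capitals mark matches to the letters of the TATA box (TATAAA), the CCAAT box (CCAAT) and the core of the GC box (GGGCGG), each read on both strands. A match at any distance from the start was marked, so it need not be a working box. These are the windows of Col3a1 (chr1:45311288-45311537, plus strand), Col5a1 (chr2:27886175-27886424, plus), Col4a6 (chrX:141474077-141474326, minus), Col6a3 (chr1:90843972-90844221, minus) and Col15a1 (chr4:47207762-47208011, plus).
Col3a1: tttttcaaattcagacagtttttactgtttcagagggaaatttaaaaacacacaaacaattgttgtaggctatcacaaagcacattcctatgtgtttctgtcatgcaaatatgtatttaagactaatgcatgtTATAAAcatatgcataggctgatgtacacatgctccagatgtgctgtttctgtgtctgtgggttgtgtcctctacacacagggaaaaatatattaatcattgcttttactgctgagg
Col5a1: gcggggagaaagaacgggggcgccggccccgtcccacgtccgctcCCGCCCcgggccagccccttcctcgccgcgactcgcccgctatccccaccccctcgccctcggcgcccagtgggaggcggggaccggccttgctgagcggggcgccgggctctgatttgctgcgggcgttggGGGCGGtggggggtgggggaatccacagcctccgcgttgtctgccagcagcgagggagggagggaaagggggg
Col4a6: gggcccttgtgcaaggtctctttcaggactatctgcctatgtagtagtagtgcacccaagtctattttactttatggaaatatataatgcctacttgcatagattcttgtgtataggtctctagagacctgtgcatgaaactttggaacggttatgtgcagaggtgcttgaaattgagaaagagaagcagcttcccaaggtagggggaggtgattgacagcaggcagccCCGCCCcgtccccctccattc
Col6a3: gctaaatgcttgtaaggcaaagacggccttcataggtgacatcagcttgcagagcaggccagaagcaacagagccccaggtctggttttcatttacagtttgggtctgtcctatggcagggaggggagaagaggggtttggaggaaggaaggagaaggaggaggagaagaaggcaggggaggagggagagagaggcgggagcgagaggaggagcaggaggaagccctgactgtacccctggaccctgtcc
Col15a1: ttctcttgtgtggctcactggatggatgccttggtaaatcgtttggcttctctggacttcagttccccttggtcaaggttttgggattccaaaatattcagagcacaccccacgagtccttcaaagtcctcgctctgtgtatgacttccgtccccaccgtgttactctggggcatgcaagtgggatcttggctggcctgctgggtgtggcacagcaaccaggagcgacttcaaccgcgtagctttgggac

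The windows differ in composition. The TATAAA of Col3a1 begins 117 bases before the start, GGGCGG or its complement begins 205 and 73 bases before the start of Col5a1 and 21 before that of Col4a6, and neither Col6a3 nor Col15a1 held any of these motifs. RefSeq windows were found for 35 of the 44 collagen genes (38 windows). The letters GGGCGG were in 57.9% of collagen windows, against 32.7% of all 32851 windows. The letters CCAAT were in 34.2% of collagen windows, against 33.9% of all windows, and TATAAA was in 13.2%, against 12.4%. These are matches of letters and say nothing about which factors bind.

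Total counts per library were 20048216 to 23243129 in KO and 23506674 to 25521123 in WT. Levels are given as CPM, counts scaled to library size, after normalization by the trimmed mean of M values (TMM), and fold changes are KO over WT. KO replicate 1 stood apart, and its values are given beside the results. Mitochondrially encoded genes held 18.9% of its counts, and averaged 13.96% ± 4.53 (SD) over KO and 7.51% ± 1.70 over WT libraries, without overlap (exact permutation p = 0.1). The 6 smooth muscle markers (among them Acta2 and Myh11) summed to 40076, 53935 and 43717 CPM in KO replicates 1, 2 and 3. They summed to 48496 to 51830 CPM in WT, so KO replicates 1 and 3 lay below every WT library and KO replicate 2 above every WT library. Both genotypes carried smooth muscle markers at high levels, and markers of other cell types were also present, as given below. The parts of the mitochondrial share and of KO replicate 1 in the results were not tested beyond the values given without that library.

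Most of the abundant collagen genes had lower levels in KO aortas than in WT, by amounts that did not pass the test over all rows. Of the 34 tested genes, 0 were called at an adjusted p under 0.05 by edgeR's quasi-likelihood test, where 0.00707% of all tested rows were called. DESeq2 gave an adjusted p to 24 of them and called 0 (background 1.85% of rows), with a smallest adjusted p of 0.0687 for Col6a6. Limma-voom also called 0 (background 0.00707%). At an unadjusted p under 0.05, edgeR had 8 lower and 1 higher collagen genes, against backgrounds of 7.76% and 6.8% of rows. Of the 15 collagens with a mean of at least 100 CPM, 6 were lower at that level in edgeR, against 17.8% of rows in that range. DESeq2 counted more: 12 of these 15 and 14 of all 34 collagens had an unadjusted p under 0.05 in either direction, against 24.2% of rows in that range and 12.3% of all rows.

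The direction was uneven across levels. Of the 34 genes, 23 had a fold change below 0, against 47.5% of all tested rows, with a median log2 of −0.23 beside 0.012 over all rows. Among the 15 genes with a mean of at least 100 CPM, 14 lay below 0 and the median log2 was −0.26. Abundant rows as a whole also lay lower: 67.4% of the 1708 rows at that level were below 0, with a median log2 of −0.07. Among the 19 genes under 100 CPM, 9 lay below 0 and 10 above, with a median log2 of 0.085. The split at 100 CPM was chosen after the values were seen.

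Every KO library was below every WT library for 9 of the 34 genes (background 11.3% of rows) and for 8 of the 15 abundant ones (background 24.1% of rows at that level). A single gene, Col9a3, had every KO library above every WT library (background 10.5%). KO replicate 1 was the lowest KO library for 12 of the 15 abundant genes, against 54.4% of abundant rows. Without KO replicate 1, 14 of the 15 abundant genes were below 0, the median log2 was −0.17 over these 15 and −0.13 over all 34, and 8 had no overlap between genotypes, against 25.8% of abundant rows in that comparison. Collagen genes at an unadjusted p under 0.05, in either direction, then numbered 2 of 34, against 9.25% of all rows.

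**Figure D1:**
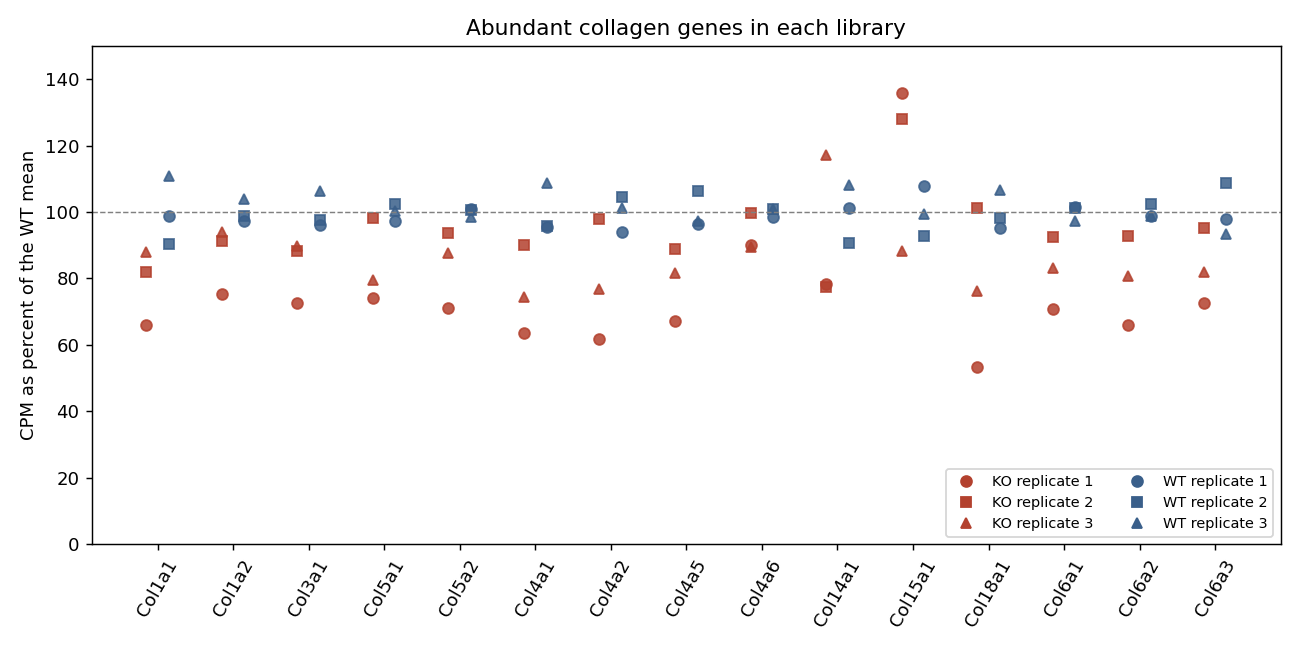
CPM of the 15 collagen genes with a mean of at least 100 CPM, as a percent of the WT mean (vertical axis, from 0), with 1 point per library, KO in red left of WT in blue, and symbols for replicate numbers. KO replicate 1 (red circles) is the lowest KO point for 12 of the 15 genes, and Col15a1 is the gene whose KO mean lies above 100%.

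Collagen reads made up 1.31%, 1.80% and 1.64% of counts in KO replicates 1, 2 and 3, and 1.91%, 1.88% and 2.06% in WT replicates 1, 2 and 3. No KO value reached the lowest WT value. The difference was −0.371 percentage points (exact two-sided permutation p = 0.1, the smallest that 3 against 3 libraries allow). With mitochondrially encoded and hemoglobin genes left out of the totals it was −0.279, and without KO replicate 1 it was −0.235 (exact permutation p = 0.1 each).

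Fibrillar and type IV chains each had a lower share in every KO library. Fibrillar chains took 0.764% ± 0.103 (SD, n = 3) of counts in KO and 0.930% ± 0.0586 in WT, and type IV chains 0.316% ± 0.0585 and 0.405% ± 0.0203 (exact permutation p = 0.1 each, 0.25 adjusted over 5 classes). The other chains took 0.463% ± 0.0996 in KO and 0.573% ± 0.0171 in WT, but KO replicate 2 (0.568%) lay within the WT range. FACIT shares (0.0366% ± 0.00822 in KO, 0.0416% ± 0.00305 in WT) and network shares (0.00329% ± 0.00133 and 0.00265% ± 0.000757) overlapped (exact permutation p = 0.4 and 0.6).

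**Figure D2:**
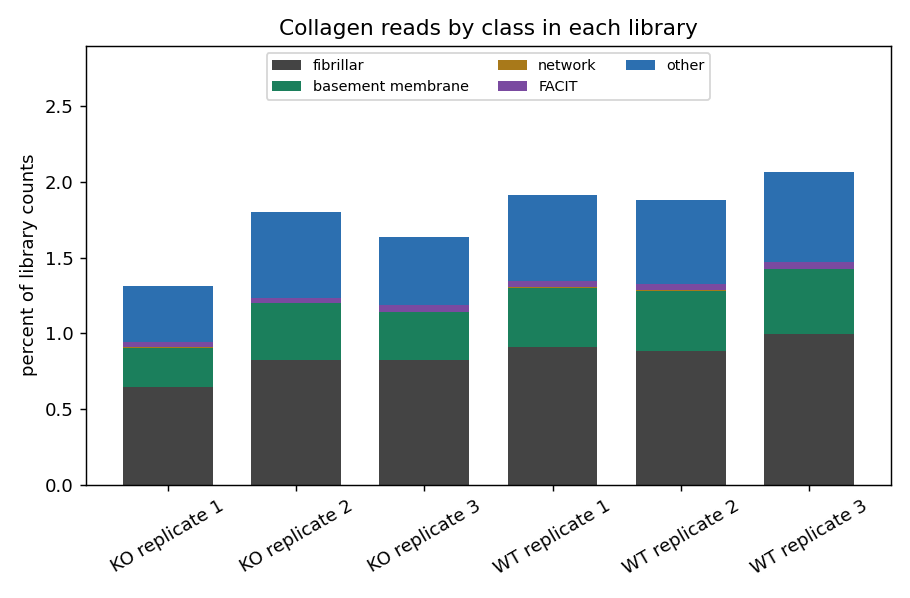
Percent of each library's counts that fell on collagen genes (vertical axis, from 0), stacked by class, KO libraries left of WT libraries. The stacks end between 1.31% and 1.80% in KO and between 1.88% and 2.06% in WT.

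The make-up of collagen messenger RNA by class overlapped between genotypes. Per kilobase of annotated exon, fibrillar chains made up 40.8% ± 2.41 of collagen CPM in KO and 40.2% ± 0.795 in WT (n = 3 each; exact permutation p = 0.8). Type IV chains made up 22.4% ± 0.912 and 23.4% ± 0.515 (p = 0.3 by the same exact test), and the other chains 33.9% ± 2.17 and 33.9% ± 0.624 (exact permutation p = 0.9).

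The fibrillar class held 8 tested genes, 6 below 0, with a median log2 of −0.23, and 4 of them, all above 100 CPM, had every KO library below WT (background 11.3% of all rows and 24.1% of rows at that level). Col1a1, the α1 chain of collagen I (GRCm38 chr11:94936224-94953042, plus strand), measured 1167, 1452 and 1559 CPM in KO replicates 1, 2 and 3 and 1750.3, 1602 and 1964 CPM in WT replicates 1, 2 and 3. All KO values lay below all WT values. Its log2 fold change was −0.35 ± 0.13 (SE; 95% interval −0.65 to −0.04; adjusted p = 0.307). Without KO replicate 1 the log2 fold change of Col1a1 was −0.24.

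Col1a2, the partner chain of Col1a1 and the fibrillar gene of highest CPM (chr6:4504814-4541544, plus), measured 2363, 2861 and 2949.8 CPM in KO and 3049.6, 3102 and 3262 CPM in WT. Its KO libraries also lay below WT, with replicate 3 near the lowest WT library, and the log2 fold change was −0.20 ± 0.11 (95% interval −0.46 to 0.06; adjusted p = 0.416), or −0.11 without KO replicate 1. Col3a1, the chain of collagen III (chr1:45311538-45349706, plus; its upstream window is printed above), measured 2231, 2716 and 2765 CPM in KO and 2955, 3004 and 3269.8 CPM in WT. Again no KO value reached WT, and the log2 fold change was −0.26 ± 0.11 (95% interval −0.52 to 0.005; adjusted p = 0.346), or −0.17 without KO replicate 1.

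The chains of collagen V, which helps set the diameter of collagen I fibrils, ran close to each other. Col5a2 (chr1:45374321-45503282, minus) measured 365, 482 and 451 CPM in KO and 518, 516 and 506 CPM in WT. Its WT libraries were tight (SD 6.51) and KO libraries spread (SD 60.3), all below WT, for a log2 fold change of −0.25 ± 0.11 (adjusted p = 0.342), or −0.14 without KO replicate 1. Col5a1 (chr2:27886425-28039514, plus) measured 487, 646 and 522 CPM in KO and 640.2, 673 and 658 CPM in WT. KO replicate 2 of Col5a1 lay within the WT range, and the log2 fold change was −0.25 ± 0.11 (adjusted p = 0.346). It was −0.17 without KO replicate 1 and −0.38 without KO replicate 2. The other chain of this type, Col5a3, was low (4.63 ± 2.01 CPM in KO, 5.10 ± 1.84 in WT; log2 −0.14 ± 0.39).

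The remaining fibrillar genes did not share the direction. Col27a1, a chain of cartilage and other fibrils, measured 41.1 ± 9.48 CPM in KO and 36.3 ± 12.3 in WT, with a log2 fold change of 0.18 ± 0.27. Col11a2, a chain of collagen XI, measured 3.67 ± 0.703 and 2.70 ± 0.600 CPM (0.44 ± 0.23, adjusted p = 0.406).

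The type IV genes lie in head-to-head pairs in the genome, each pair sharing the region between its start sites. In GENCODE M21 the starts of Col4a1 (chr8:11198423-11312826, minus) and Col4a2 (chr8:11312805-11449287, plus) overlap by 22 bases, those of Col4a4 and Col4a3 on chromosome 1 are 71 bases apart, and those of Col4a6 (minus) and Col4a5 (plus) on chromosome X are 1308 apart. The pairs differed in level: per kilobase of exon, Col4a1 and Col4a2 measured 168 and 159.7 CPM in KO (221 and 202 in WT), Col4a5 and Col4a6 68.0 and 45.7 (85.8 and 49.1 in WT), and Col4a3 and Col4a4 2.21 and 2.96 (2.24 and 2.75 in WT). The class had 5 of 6 genes below 0 and a median log2 of −0.22.

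Col4a1, the α1 chain of the ubiquitous basement membrane network, measured 1049, 1489.6 and 1229 CPM in KO and 1577, 1580.2 and 1798 CPM in WT. No KO library reached WT, with replicate 2 the closest, and the log2 fold change was −0.40 ± 0.14 (95% interval −0.71 to −0.08; adjusted p = 0.279). Without KO replicate 1 Col4a1 had −0.28, and without KO replicate 2 it had −0.53. Its partner Col4a2 measured 829.6, 1313 and 1029.6 CPM in KO and 1261, 1401 and 1358 CPM in WT. The order of the KO libraries was that of Col4a1, KO replicate 2 of Col4a2 lay within the WT range, and the log2 fold change was −0.34 ± 0.16 (adjusted p = 0.366). It was −0.19 when KO replicate 1 was left out and −0.53 when KO replicate 2 was left out.

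Col4a5, the chain that joins Col4a6 in smooth muscle basement membranes (chrX:141475385-141689234, plus), measured 387, 513 and 470.4 CPM in KO and 556, 614 and 560.4 CPM in WT. Its libraries did not overlap between genotypes (log2 −0.34 ± 0.11, 95% interval −0.59 to −0.08, adjusted p = 0.279). Col4a6 (chrX:141165403-141474076, minus), at 364 ± 22.2 CPM in KO and 392 ± 5.49 in WT, had −0.10 ± 0.07 (95% interval −0.27 to 0.06; adjusted p = 0.497). The low pair Col4a3 (−0.01 ± 0.13) and Col4a4 (0.11 ± 0.15), best known from the kidney filter, overlapped between genotypes. Of the exon length of Col4a3, 5.65% overlaps a transcript on the opposite strand.

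Network chains were low. Col8a1, a chain of collagen VIII, which vessel cells make during remodelling, measured 42.5, 17.0 and 26.7 CPM in KO and 19.9, 33.2 and 13.4 CPM in WT. Values of both genotypes covered nearly the same range (log2 0.37 ± 0.39, adjusted p = 0.678). Without KO replicate 1 the log2 fold change of Col8a1 was −0.021. Col8a2 measured 5.93, 3.34 and 4.58 CPM in KO and 3.86, 2.15 and 6.17 CPM in WT (0.19 ± 0.38), also overlapping.

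Of the 7 tested FACIT genes, 5 lay below 0 and the median log2 was −0.16. Col14a1, which binds collagen I fibrils and was the FACIT of highest CPM (chr15:55307750-55520803, plus), measured 250.2, 247 and 374 CPM in KO and 323, 289.5 and 345 CPM in WT. KO replicate 3 was the highest of all libraries (log2 −0.14 ± 0.16, adjusted p = 0.722). The fold change of Col14a1 was −0.36 when KO replicate 3 was left out and −0.031 when KO replicate 2 was left out. Col19a1, a basement membrane zone chain (chr1:24261890-24587472, minus), measured 4.64, 6.26 and 9.82 CPM in KO and 9.80, 14.5 and 11.3 CPM in WT. KO replicate 3 just reached the lowest WT library, and the log2 fold change was −0.77 ± 0.27 (95% interval −1.41 to −0.14; adjusted p = 0.282).

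Both FACIT genes above 0 were of low level. Col20a1 (chr2:180986535-181018363, plus) measured 6.34, 5.25 and 4.24 CPM in KO and 3.86, 4.33 and 3.60 CPM in WT (0.42 ± 0.19, adjusted p = 0.351), with KO replicate 3 inside the WT range, and 0.27 without KO replicate 1. Col9a3, a chain of collagen IX (chr2:180597790-180622189, plus), had 15, 16 and 13 counts in KO and 7, 9 and 13 counts in WT, which gave 0.774, 0.764 and 0.562 CPM in KO and 0.291, 0.358 and 0.538 CPM in WT. These counts are small, KO and WT replicate 3 both had 13 counts, and the log2 fold change was 0.81 ± 0.36 (adjusted p = 0.352). In the annotation 6.07% of the exon length of Col9a3 overlaps Tcfl5 on the opposite strand, so its count depends on the strand setting, which the sources used here do not give. The other FACITs, Col16a1 (−0.16 ± 0.08), Col12a1 (−0.27 ± 0.24) and Col22a1 (−0.33 ± 0.52), overlapped between genotypes.

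Type VI chains, which form beaded filaments near cells and link them to fibrils, lay below 0 in each of the 5 tested genes. They had log2 fold changes from −0.999 to −0.26 and a median of −0.33. Col6a1 (chr10:76708792-76726168, minus) measured 555, 725 and 652 CPM in KO and 797, 793 and 763 CPM in WT. No KO library reached WT (−0.28 ± 0.10, 95% interval −0.53 to −0.04, adjusted p = 0.296). With KO replicate 1 left out, Col6a1 had −0.19, Col6a2 −0.20 and Col6a3 −0.17.

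Col6a2 (chr10:76595762-76623630, minus) measured 623, 876 and 764 CPM in KO and 934, 966 and 934 CPM in WT. The WT libraries were within an SD of 18.6 CPM, while KO had an SD of 127 CPM, and the log2 fold change was −0.33 ± 0.12 (95% interval −0.61 to −0.04; adjusted p = 0.307). Col6a3, at 619 ± 84.1 CPM in KO and 743 ± 58.6 in WT, had −0.26 ± 0.11 (adjusted p = 0.344), with KO replicate 2 inside the WT range.

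Col6a6, a late-described α chain of type VI (chr9:105687809-105828160, minus), had the smallest p of the tested collagens. It measured 17.1, 16.9 and 17.0 CPM in KO and 22.4, 20.2 and 26.5 CPM in WT. Here the KO libraries were the tight ones, all below WT, and KO replicate 1 was not the lowest. The log2 fold change was −0.44 ± 0.11 (95% interval −0.69 to −0.19; adjusted p = 0.263), and it was −0.44 without KO replicate 1. Col6a5 was near the limit of detection, with 7, 5 and 10 counts in KO and 32, 13 and 6 counts in WT (−0.999 ± 0.63).

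The 2 multiplexins had fold changes of opposite sign. Col18a1, whose C-terminal fragment is endostatin (chr10:77052178-77166548, minus), measured 1431, 2720.0 and 2047 CPM in KO and 2559, 2640.0 and 2867 CPM in WT. The KO libraries of Col18a1 lay far apart, with replicate 2 inside the WT range, and the log2 fold change was −0.38 ± 0.21 (95% interval −0.87 to 0.11; adjusted p = 0.422). It was −0.17 when KO replicate 1 was left out and −0.63 when KO replicate 2 was left out. Per kilobase of exon Col18a1 was the highest of all collagens, at 294 ± 91.8 CPM in KO and 383 ± 22.7 in WT, ahead of Col3a1 at 262 ± 30.1 and 313 ± 17.3. In KO these levels of Col18a1 and Col3a1 did not differ beyond their spread.

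Col15a1 (chr4:47208161-47313167, plus), described because it was the abundant collagen above 0, measured 651, 614 and 424 CPM in KO and 517, 444 and 476 CPM in WT. KO replicates 1 and 2 were above every WT library and KO replicate 3 was below them, for a log2 fold change of 0.23 ± 0.16 (95% interval −0.13 to 0.60; adjusted p = 0.497). It was 0.11 without KO replicate 1 and 0.40 without KO replicate 3. It was chosen after its values were seen. Its KO order was the reverse of that of the Col1a1 libraries, highest in replicate 1 and lowest in replicate 3.

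Further chains of this class were low. Col7a1, the anchoring fibril chain, had 45, 29 and 39 counts in KO and 20, 36 and 22 counts in WT, or 1.80 ± 0.477 CPM in KO and 1.06 ± 0.326 in WT (0.76 ± 0.32, adjusted p = 0.340), with KO replicate 2 inside the WT range. The transmembrane chain Col13a1 had 10, 7 and 15 counts in KO and 11, 74 and 6 counts in WT, so WT replicate 2 set its log2 fold change of −1.27 ± 0.88. Without that library it was 0.50. Col23a1, another transmembrane chain (0.085 ± 0.26), and Col28a1 (0.18 ± 0.33) overlapped between genotypes.

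**Figure D3:**
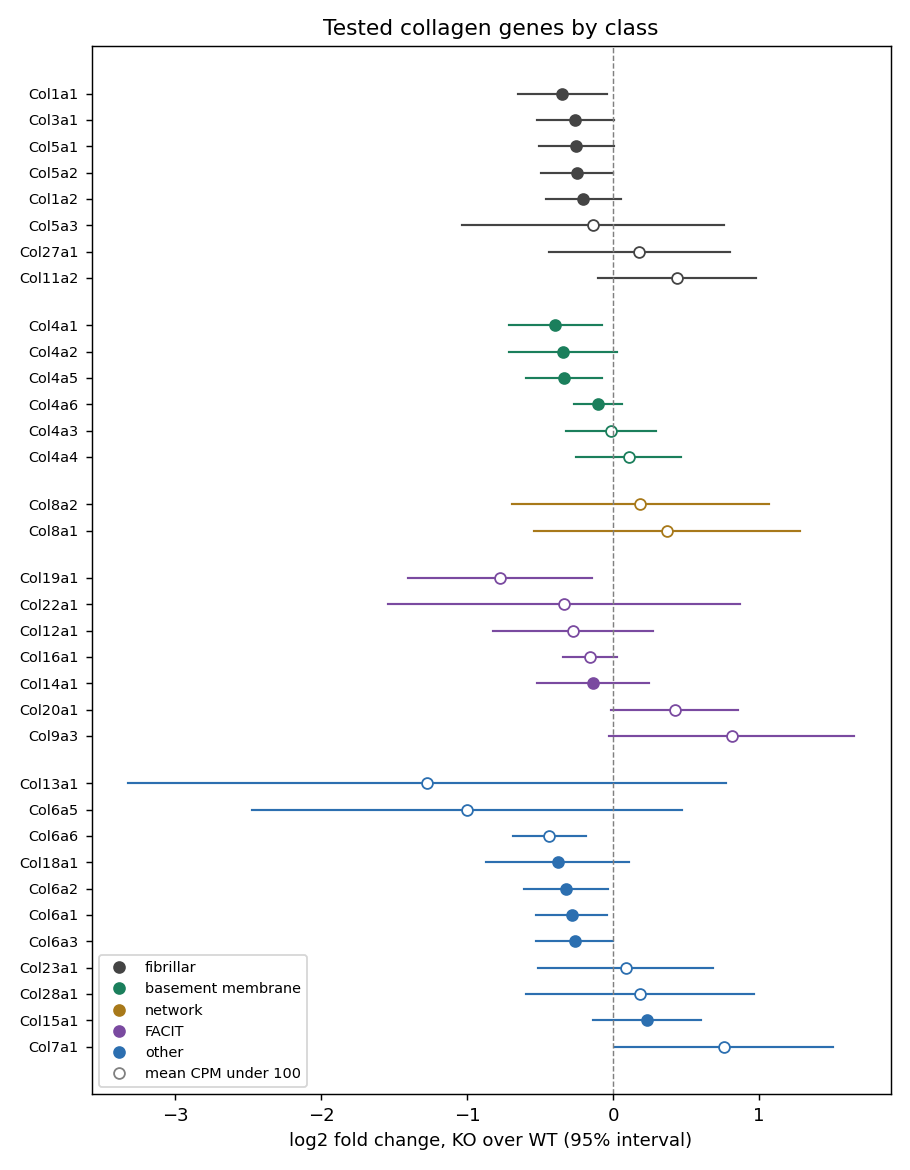
Log2 fold change of KO over WT (horizontal axis) with 95% intervals for the 34 tested collagen genes, grouped and coloured by class, with open points for genes with a mean under 100 CPM. All filled points except that of Col15a1 lie left of 0, while open points lie on both sides with wider intervals.

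Chains of a shared trimer or filament were compared within libraries, which removes library scaling. Per kilobase of exon the ratio of Col1a1 to Col1a2 averaged 0.965 ± 0.0330 in KO and 1.07 ± 0.0826 in WT (SD, n = 3 each; log2 difference −0.14, exact permutation p = 0.2). The ratio of Col4a1 to Col4a2 averaged 1.06 ± 0.0573 in KO and 1.09 ± 0.0876 in WT (log2 difference −0.04, exact permutation p = 0.8). Both ratios overlapped between genotypes.

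The ratio of Col3a1 to Col1a1 averaged 1.24 ± 0.0474 in KO and 1.17 ± 0.0769 in WT, that of Col5a1 to Col5a2 1.44 ± 0.117 and 1.45 ± 0.0439, and that of Col6a1 to Col6a2 1.63 ± 0.0602 and 1.58 ± 0.0379 (n = 3 each). Col8a1 over Col8a2 was 4.11, 2.91 and 3.34 in KO and 2.96, 8.87 and 1.25 in WT. None of the 6 ratios had an exact permutation p under 0.2, or under 0.6 adjusted over the 6. The denominators are all annotated exons of a gene, so a ratio need not be that of the chains in the protein.

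Among the 15 abundant collagens, the median Pearson r of log2 CPM between pairs of genes was 0.89 over the 6 libraries (105 pairs, from −0.84 to 0.99). The same libraries stand behind every pair, and genotype and KO replicate 1 enter each value. Outside the collagens, the genes most like Col1a1 in log2 CPM over the 6 libraries, among 8972 genes with a mean of at least 10 CPM, were Atp8b2 (r = 0.995), Gnai2 (0.992), Ddx10 (0.988), Scube3 (0.987) and Rab22a (0.987). Those most like Col4a1 were Sp1 (0.997), Gnl3l (0.995), Triqk (0.995), Dnajc18 (0.993) and the bone morphogenetic protein receptor Bmpr1a (0.993). With 6 libraries and this many genes, a high r is no sign of a shared function or control.

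The enzymes and carriers that build collagen had fold changes on both sides of 0. Of 40 listed genes for hydroxylation, folding, export, cleavage and cross-linking, 34 were tested, 22 lay below 0 and the median log2 was −0.10. EdgeR called 0. At an unadjusted p under 0.05 it had 4 lower and 1 higher, against 7.76% and 6.8% of all rows. DESeq2 called 1 of 32, Sec23a, against 1.85% of rows. The prolyl hydroxylase subunits P4ha1 (0.06 ± 0.13) and P4hb (−0.01 ± 0.09) and the collagen chaperone Serpinh1 (−0.13 ± 0.09) overlapped between genotypes (picked with their values in view).

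The members with the smallest p act in export and cross-linking. Sec23a, of the COPII coat that carries procollagen out of the endoplasmic reticulum, measured 95.4, 116 and 112 CPM in KO and 135, 130.7 and 150.1 CPM in WT, without overlap. Its log2 fold change was −0.36 ± 0.09 (adjusted p = 0.264 in edgeR and 0.0494 in DESeq2). Its coat partner Sec24d measured 189.5, 234 and 215 CPM in KO and 254, 258 and 289 CPM in WT (−0.33 ± 0.09, adjusted p = 0.273), also without overlap.

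Lox, the lysyl oxidase that starts cross-links in collagen and elastin, measured 104, 127 and 135 CPM in KO and 225, 150.1 and 339 CPM in WT. All KO libraries were below WT, and the WT libraries spread widely, with an SD of 95.1 CPM (log2 fold change −0.96 ± 0.27, adjusted p = 0.264). Outside the naming rule, and chosen after their values were seen, were Bmp1, which trims the C-propeptide of fibrillar procollagens, and Pxdn, which cross-links type IV networks. Bmp1 was above WT in every KO library, at 188, 133 and 136 CPM in KO and 122, 122 and 118 CPM in WT (0.34 ± 0.13, adjusted p = 0.315). Pxdn was below WT in every KO library, at 113 ± 17.4 CPM in KO and 143 ± 1.21 in WT (−0.35 ± 0.10, adjusted p = 0.277).

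Collagen receptors showed 4 of 10 tested genes below 0 (12 were listed), a median log2 of 0.047, and 0 calls in edgeR or DESeq2, with 1 gene lower at an unadjusted p under 0.05 in edgeR, which is near the background of 7.76%. Itgb1, the shared β subunit of collagen-binding integrins, measured 2112, 2421 and 2261 CPM in KO and 2653, 2640.0 and 2666 CPM in WT. Its KO libraries lay below tightly grouped WT libraries (−0.23 ± 0.09, adjusted p = 0.317). The subunit Itga1 (293 ± 26.1 CPM in KO, 325 ± 1.03 in WT, −0.15 ± 0.08) and the collagen-activated receptor kinase Ddr2 (407 ± 9.88 and 443 ± 24.3 CPM, −0.12 ± 0.07) also had adjusted p above the threshold (0.397 and 0.434).

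Levels of listed marker genes for other cell types and for posterior position differed between libraries, and values are given beside those of collagens. Whether the libraries differed in aortic position itself was not tested. In bulk RNA, fewer cells of a type and less RNA per cell cannot be told apart. Per library, the median of log2 CPM minus the WT mean over the 15 abundant collagens was −0.49, −0.11 and −0.27 in KO replicates 1, 2 and 3, and lay between −0.027 and 0.012 in WT. Smooth muscle markers had the same order among KO libraries, at −0.20, 0.072 and −0.15 in KO replicates 1, 2 and 3, and lay between −0.066 and 0.067 in WT. The same measure for 6 tested Hox genes of posterior position was −1.80, −0.93 and −0.025 in KO, against −0.24 to 0.22 in WT, and for 7 tested heart muscle markers 1.88, 0.45 and −0.13 in KO, against −0.050 to 0.23 in WT. The 7 listed posterior genes summed to 7.58 to 28.5 CPM in KO and 21.5 to 28.7 CPM in WT. The 8 heart genes summed to 89.4 to 159 CPM in KO and 78.4 to 111 CPM in WT. Most of each heart sum was Ryr2, at 81.4, 78.2 and 69.5 CPM in KO replicates 1, 2 and 3. In WT Ryr2 measured 87.5, 54.4 and 93.1 CPM (log2 fold change −0.04), while the other 6 tested heart genes had fold changes above 0. The heart hormone gene Nppa had 3 counts in KO replicate 1 and 0 in the other libraries. KO replicate 1, where collagens were lowest, was the extreme library in both lists. KO replicate 3 had lower collagens than KO replicate 2, and posterior and heart values nearer WT. Their part in the collagen values was not tested.

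Adventitial fibroblasts, which also make collagens I, III, VI and XIV, had another order over the KO libraries. Their 9 markers summed to 2244, 1006 and 1847 CPM in KO replicates 1, 2 and 3 and to 1754, 1027 and 1683 CPM in WT, with 8 of 9 fold changes above 0. These sums were above every WT library in KO replicates 1 and 3 and below every WT library in KO replicate 2. Tested markers of endothelial cells (6 of 7), macrophages (7 of 7), Schwann cells (3 of 5) and adipocytes (5 of 6) had fold changes above 0, with median log2 values of 0.43, 0.15, 0.36 and 0.33. Genes of the chondrocyte list (1 of 4 above 0, −0.30) and erythroid genes (0 of 5, −1.47) had medians below 0. Of the chondrocyte list, Matn1 had 0 counts in every library and Matn3 no more than 5 in any. Most of its level came from Acan, Comp and Hapln1, so the list does not show that chondrocytes were present. Neither edgeR nor DESeq2 called a gene of these lists. At an unadjusted p under 0.05 edgeR had 1 endothelial and 3 heart muscle genes higher, and 2 chondrocyte, 2 erythroid and 1 posterior genes lower, against backgrounds of 6.8% higher and 7.76% lower. Summed levels were 266 to 527 CPM in KO and 251 to 336 CPM in WT for endothelial markers, and 42.3 to 105 CPM in KO and 47.7 to 76.2 CPM in WT for macrophage markers. They were 13.8 to 38.0 CPM in KO and 16.1 to 22.0 CPM in WT for Schwann cells, 33.1 to 82.9 and 28.9 to 64.5 for adipocytes, 55.9 to 73.4 and 76.4 to 86.4 for chondrocytes, and 25.6 to 35.5 and 20.3 to 152 for erythroid genes. The part of these cell types in the collagen values was not tested.

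**Figure D4:**
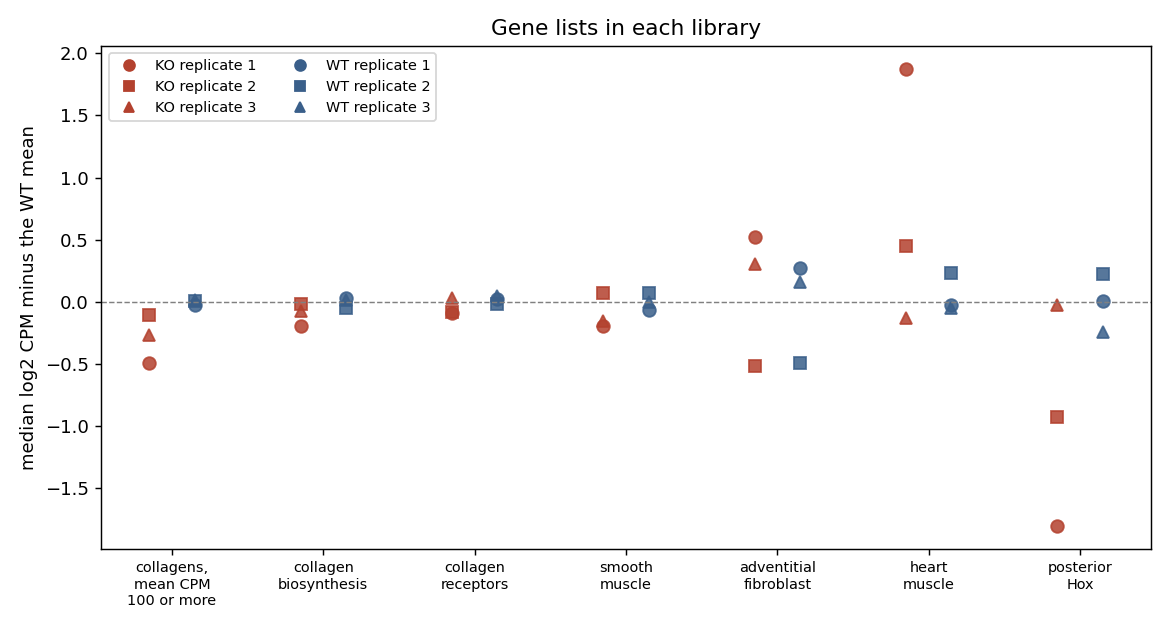
Median over each list of log2 CPM minus the WT mean (vertical axis), with 1 point per library, KO in red left of WT in blue. The abundant collagens lie at −0.49, −0.11 and −0.27 in KO, while heart muscle and posterior Hox genes spread most in KO replicate 1 (1.88 and −1.80).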

How the data were processed

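The authors deposited raw read counts per gene for 6 libraries. The submitters' processing notes name GRCm38 as the build, and featureCounts (with Subread 1.6.1), STAR 2.6.0c and Trimmomatic 0.36 as tools. Annotation release, strand setting and handling of multi-mapping reads, which decide the counts of overlapping genes, are not given in these sources. Per the labels, columns were assigned by library name.

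Counts were tested with the quasi-likelihood test of edgeR 4.0.16 (R 4.3.3), with genotype as the term, TMM scaling and filterByExpr (minimum count 10, minimum total 15). P-values were adjusted by Benjamini and Hochberg over all 14145 tested rows (threshold 0.05). Standard errors were the absolute fold change divided by the root of F. Single values used exact two-sided permutation tests. List medians per library used log2 CPM with a prior count of 2. Alternatives were DESeq2 1.42.0, limma-voom (limma 3.58.1), other filters, scalings and left-out libraries. Exon lengths and gene coordinates come from GENCODE M21, and upstream sequences from RefSeq on GRCm38.p6. The fits were tested on simulated counts. There edgeR recovered 50% of genes changed 1.5-fold, and DESeq2 68%. Unchanged genes made up 11.0% of the calls by edgeR, 8.75% by limma-voom and 21.8% by DESeq2. Smaller changes were not simulated, so how often they would be called is not known. The simulation drew each gene independently, without an outlying library, and pooled genes of all levels. Its rates need not hold for the abundant collagens.

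The members, classes and lists were chosen with earlier results of these data known. Fully described genes were, per class, the gene of highest CPM, the 3 genes of smallest p and both chains of each ratio, and for the lists of collagen synthesis and receptors the 3 of smallest p. Depth was 20048216 to 25521123 counts per library. Genes under 1 CPM rest on few counts, so their values carry a large counting error. The series text speaks of 3 pairs, but the sources do not say what a replicate number shares. The main test was therefore unpaired, and a block for the replicate number was fitted as an alternative.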

Additional observations from a re-analysis of the deposited data

How the results depend on the processing

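No tested collagen gene was called by edgeR, by edgeR with DESeq2 size factors, by DESeq2, by limma-voom, with another filter, without mitochondrially encoded and hemoglobin genes, with the replicate block or without any single library. Over all rows the count of called genes, 1 by edgeR, was 192 by DESeq2, 9 with no filter, 0 with the replicate block, and 0 to 3 over single left-out libraries. Of the collagen synthesis and receptor genes, 1 was called by DESeq2. With Col7a1, Col15a1 and Col18a1 counted as basement membrane, that class had a median log2 of −0.10. With type VI genes counted as network chains, the network median was −0.28 and that of the other chains 0.13.

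Over left-out libraries, the median log2 of all tested collagens lay between −0.26 and −0.13, of fibrillar genes between −0.27 and −0.15, of type IV genes between −0.29 and −0.15, of network genes between −0.027 and 0.51, of FACIT genes between −0.36 and −0.042, and of the other chains between −0.38 and −0.13. Log2 differences of ratios lay between −0.10 and 0.011 for Col4a1 to Col4a2, −0.042 and 0.064 for Col5a1 to Col5a2, −0.58 and 0.83 for Col8a1 to Col8a2, −0.21 and −0.095 for Col1a1 to Col1a2, 0.057 and 0.14 for Col3a1 to Col1a1, and 0.018 and 0.071 for Col6a1 to Col6a2. Of the tested collagens, 9 changed sign without some library, none of them above 100 CPM: Col4a3 (−0.11 to 0.095), Col27a1 (−0.049 to 0.44), Col8a2 (−0.12 to 0.62), Col28a1 (−0.11 to 0.44), Col5a3 (−0.48 to 0.15), Col13a1 (−1.74 to 0.50), Col23a1 (−0.21 to 0.25), Col22a1 (−0.87 to 0.047) and Col8a1 (−0.021 to 0.78). The causes were not tested.

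Same-numbered libraries had correlations of their deviations from group means of 0.107, 0.134 and −0.0556. Libraries of unlike number had values between −0.283 and 0.179. With 3 libraries per genotype these values cannot decide whether the libraries were paired. With the replicate block the collagen median was −0.23, 11 of 34 collagen genes had an unadjusted p under 0.05, against 14.1% of all rows, and the smallest adjusted p was 0.301.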
